A study of Mus musculus with 12 samples.

Results

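The oligoadenylate synthetase (OAS) family was followed in lineage-negative, cKit-positive cells of mouse bone marrow, the fraction in which blood stem cells and progenitors are found. Members were the genes named Oas1a, Oas1b, Oas1c, Oas1g, Oas2, Oas3, Oasl1 and Oasl2 in the deposited gene tables, chosen by name, and all 8 were found among 24411 listed genes. Poly(A)-selected RNA was sequenced in 12 libraries, 3 for each of 4 donor genotypes on a C57BL/6 background: Sf3b1-K700E together with Inv(3) (the double group), Inv(3) alone, Sf3b1-K700E alone, and Mx1-Cre alone (control). Donors of all 4 groups carried the Mx1-Cre transgene. Their CD45.2 marrow was transplanted with wild-type CD45.1 support marrow into irradiated CD45.1 recipients, which received 3 doses of 20 mg/kg pIpC starting 4 weeks later and were sampled 6 months after pIpC.

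The inv(3) allele models a rearrangement that places a GATA2 enhancer next to EVI1 (Mecom), and Sf3b1 K700E is a heterozygous mutation of a core splicing factor. Mx1-Cre is driven by the interferon-inducible Mx1 promoter, so recombination is not limited to one blood lineage. pIpC is a synthetic double-stranded RNA that induces interferon, and the control mice received it too. The sources used here do not say whether CD45.2 cells were separated from CD45.1 cells, or whether replicates are separate mice. If they are not, the p-values reflect only the spread between samples, which may be technical.

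OAS proteins sense double-stranded RNA. Active family members then join ATP into short oligoadenylates, second messengers of the antiviral response. OAS genes are transcribed at a low level in resting cells and are classical targets of interferon, whose transcription factors bind a DNA motif called the interferon-stimulated response element.

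The libraries held 73074797 to 86555638 expected counts each, of which a single member had between 234.75 and 4584.12. All 8 passed the low-count filter, as did 13755 genes in all. The gate's defining gene Kit was detected at 409 to 469 CPM (counts per library, scaled to one standard total) across the 12 libraries. Xist, the RNA of the inactive X chromosome, was at 23.1 to 39.5 CPM in the double libraries, 1730 to 2010 CPM in the inv(3) libraries, 80.2 to 222 CPM in the Sf3b1 K700E libraries and 24.2 to 40.5 CPM in the control libraries. Summed counts of 4 Y-linked genes lay between 4 and 8 for each inv(3) library, but between 19200 and 25380 for all others. In comparisons with the inv(3) group, sex-linked RNA and genotype therefore cannot be told apart. The double and control groups overlapped in Xist, and both held Y-linked RNA, with 22380 to 23788 counts in double and 20343 to 20418 in control. The Sf3b1 K700E libraries held Y-linked RNA too (19200 to 25380 counts), but each had more Xist than any double or control library. In comparisons with the Sf3b1 K700E group, Xist level and genotype cannot be told apart either.

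Promoter sequences are shown first, for the members whose windows hold a match to the core of that element. Of the members, 6 had an entry in the RefSeq promoter table (build GRCm38.p6), all but Oas1b and Oas2. Windows ran from 250 bases before to 50 bases after the listed start, and were searched on both strands for its core, written here as GAAA, any 2 bases, then GAAA. The 120 bases before the listed start of each gene with a match are given on the strand of the gene, with matches in capitals. Offsets below count from that listed start. For Oas1a, Oas3 and Oas1c it lies inside the gene bounds given further below, so some of the printed bases do too.

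Oas1g: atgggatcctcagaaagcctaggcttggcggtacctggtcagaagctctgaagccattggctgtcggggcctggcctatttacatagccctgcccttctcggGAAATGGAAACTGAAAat

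Oas1a: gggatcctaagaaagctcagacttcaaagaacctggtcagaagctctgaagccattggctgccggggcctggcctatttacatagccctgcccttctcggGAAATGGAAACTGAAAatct

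Oas3: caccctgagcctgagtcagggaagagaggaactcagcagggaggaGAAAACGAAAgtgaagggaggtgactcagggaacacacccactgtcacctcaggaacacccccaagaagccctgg

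Oas1c: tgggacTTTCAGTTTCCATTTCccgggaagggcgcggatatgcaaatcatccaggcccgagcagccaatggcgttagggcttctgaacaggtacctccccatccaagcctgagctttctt

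These stretches lie on the minus strand of chromosome 5 in GRCm38 at chr5:120887614-120887733 (Oas1g), chr5:120907526-120907645 (Oas1a), chr5:120777660-120777779 (Oas3) and chr5:120812515-120812634 (Oas1c). Oas1g and Oas1a carried the same pair of overlapping matches, GAAATGGAAA and GAAACTGAAA, beginning at -18 and -12 in Oas1g and at -20 and -14 in Oas1a. Oas3 carried GAAAACGAAA at -75. Oas1c carried an overlapping pair in the opposite orientation, TTTCAGTTTC at -114 and TTTCCATTTC at -108. Read on the plus strand, the capitals of Oas1c are the same as those of Oas1g and Oas1a. They lie beside Oas1b, which begins at 120812635 and runs on the plus strand. The windows of Oasl1 and Oasl2 held no match. Thus 4 of 6 members held the core, against 3.44% of all 32851 windows in the table and 10 of the 22 interferon effector genes that had an entry. The match is a description of these letters and no measure of binding.

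In GRCm38 all members lie on chromosome 5. Oasl2 (114896926 to 114912245) and Oasl1 (114923143 to 114937911) are neighbours on the plus strand. The others share a cluster that runs from Oas2 (120730333 to 120749886) and Oas3 (120753098 to 120777684) through Oas1c (120800194 to 120812540), Oas1b (120812635 to 120824163), Oas1g (120876142 to 120887613) and Oas1a (120896256 to 120907544). Between and beside these lie Oas1d, Oas1e, Oas1f and Oas1h, which were nearly silent, with 4, 4, 1 and 0 expected counts summed over all 12 libraries. For Oas1h, 3 counts in the shallowest library would be 0.0531 TPM, the length-scaled transcript level used below, so its level is under that limit of counting.

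**Figure D1:**
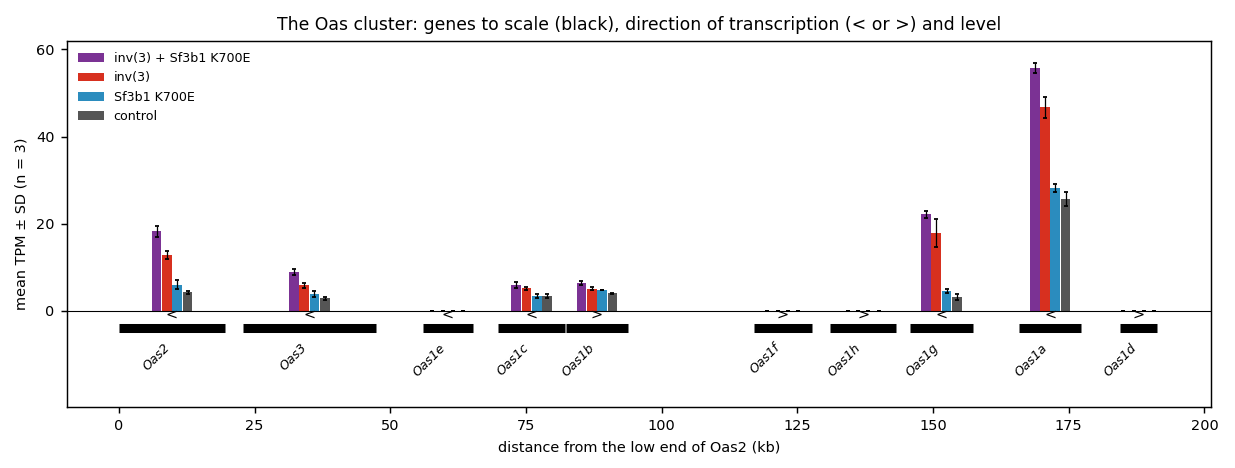
Mean TPM with SD (n = 3 libraries) of each gene of the Oas cluster, placed by its distance in kb from the low end of Oas2, with bars for double, inv(3), Sf3b1 K700E and control libraries from left to right. Oas1a is the tallest in every group, at 55.7 TPM in double and 25.7 TPM in control libraries, while Oas1d, Oas1e, Oas1f and Oas1h stay at or near 0.

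Both Oas1a and Oas1g encode active synthetases in the mouse. Oas1a, the most abundant member in every group, had 54.28, 56.5 and 56.25 TPM in the double group, 48.83, 47.07 and 44.1 in inv(3), 27.73, 29.17 and 27.57 in Sf3b1 K700E, and 26.24, 23.89 and 27.08 in control. Libraries with inv(3) were all higher than those without it. By edgeR's quasi-likelihood test with Benjamini-Hochberg adjustment over all genes tested, Oas1a rose by 1.08 ± 0.05 log2 units in double against Sf3b1 K700E (SE, 2.11-fold, adjusted p = 9.2e-08), and in inv(3) against control by 0.97 ± 0.05 (1.96-fold, adjusted p = 2.5e-07).

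Oas1g changed more than any other member in both of these comparisons. It had 21.16, 22.87 and 22.14 TPM in the double group, 19.14, 20.13 and 14.18 in inv(3), 3.89, 4.93 and 4.74 in Sf3b1 K700E, and 3.94, 2.84 and 2.7 in control. The lowest inv(3)-bearing library, inv(3) replicate 3, was still above every library without inv(3). The log2 difference was 2.38 ± 0.16 (SE, 5.21-fold, adjusted p = 8.1e-07) between double and Sf3b1 K700E, and 2.61 ± 0.17 (6.1-fold, adjusted p = 9.8e-07) between inv(3) and control. By size of rise Oas1g ranked 171 and 127 of the 13755 genes in these comparisons.

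Oas1a and Oas1g share sequence, which limits how well their reads can be parted. Of the 50-base stretches in annotated Oas1a transcripts (GENCODE M21), 57.6% also occur in Oas1g, and 45.2% the other way round. Their expected counts were fractional in 12 of 12 libraries, whereas their sum was whole in all but 1. Counted as a single gene, they were higher by 1.36 ± 0.07 log2 units in double than in Sf3b1 K700E (SE, edgeR adjusted p = 7.0e-08) and by 1.29 ± 0.07 in inv(3) than in control (adjusted p = 1.4e-07). Oas2 changed more than this sum in both comparisons (1.70 ± 0.11 and 1.71 ± 0.11). Oas1g thus changed most only with Oas1a and Oas1g counted apart.

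The proportion between the pair differed too. Oas1g made up 28, 28.8 and 28.2% of the summed Oas1a and Oas1g TPM in the double group and 28.2, 30 and 24.3% in inv(3), but 12.3, 14.5 and 14.7% in Sf3b1 K700E and 13.1, 10.6 and 9.07% in control. Over the 6 libraries with inv(3) it averaged 27.9%, against 12.4% over the 6 without, a difference of 15.6 percentage points. An exact permutation test over all 12 libraries, which took no account of Sf3b1 K700E, gave a two-sided p = 0.0022. That is the smallest p a split of 6 against 6 libraries can give. This ratio was chosen after the values were seen, and the adjusted p over the 2 ratios tested, of which the other is not reported, is 0.0022.

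Oas2 and Oas3 encode synthetases built of tandem units, and Oas3 binds long double-stranded RNA. Oas2 had 17.63, 17.39 and 19.65 TPM in the double group, 13.62, 13 and 11.69 in inv(3), 6.08, 6.92 and 5.01 in Sf3b1 K700E, and 4.47, 3.78 and 4.44 in control. No library of one group overlapped another group's for Oas2, the levels falling in the order double, inv(3), Sf3b1 K700E, control. It was higher by 1.70 ± 0.11 log2 units in double than in Sf3b1 K700E (SE, 3.24-fold, edgeR adjusted p = 4.5e-07) and by 2.14 ± 0.11 in double than in control (4.4-fold, adjusted p = 1.0e-07).

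Oas3 had 9.39, 8.02 and 9.12 TPM in the double group, 6.4, 5.99 and 5.22 in inv(3), 4.27, 4.14 and 3.07 in Sf3b1 K700E, and 2.67, 2.58 and 3.21 in control. It followed the same order, except that Sf3b1 K700E and control libraries overlapped. The log2 difference was 1.30 ± 0.13 between double and Sf3b1 K700E (SE, 2.46-fold, edgeR adjusted p = 1.0e-05) and 1.68 ± 0.13 between double and control (3.2-fold, adjusted p = 2.0e-06).

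Oasl1 and Oasl2 carry ubiquitin-like domains. Mouse Oasl2 has synthetase activity, while Oasl1 has none and is known in the mouse for repressing translation of the interferon regulator Irf7. Oasl2 had 21.43, 19.69 and 20.98 TPM in the double group, 15.55, 11.59 and 13.04 in inv(3), 10.15, 11.22 and 8.8 in Sf3b1 K700E, and 9.69, 7.62 and 8.78 in control. The double libraries stood above all others, and the inv(3) libraries above both groups without inv(3), though replicate 2 only narrowly. Oasl2 was higher by 1.13 ± 0.11 log2 units in double than in Sf3b1 K700E (SE, 2.19-fold, edgeR adjusted p = 8.3e-06), and by 0.73 ± 0.11 in inv(3) than in control (1.66-fold, adjusted p = 2.9e-04).

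Oasl1 differed least of the members between double and Sf3b1 K700E. It had 7.6, 7.53 and 7.86 TPM in the double group, 7.39, 6.59 and 6.12 in inv(3), 7.27, 4.92 and 5.85 in Sf3b1 K700E, and 4.66, 4.42 and 5.35 in control. Sf3b1 K700E replicate 1 lay within the range of the inv(3)-bearing libraries. Oasl1 rose by 0.44 ± 0.14 log2 units in double against Sf3b1 K700E (SE, edgeR adjusted p = 0.019), a call that ended without double replicate 3 (0.42, adjusted p = 0.057), Sf3b1 K700E replicate 2 (0.29, adjusted p = 0.089) or Sf3b1 K700E replicate 3 (0.40, adjusted p = 0.062). In inv(3) against control it rose by 0.59 ± 0.14 (adjusted p = 0.0052).

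Oas1b and Oas1c were the least abundant members of the inv(3)-bearing groups. In C57BL/6 mice a premature stop codon truncates Oas1b, the flavivirus resistance gene, and RefSeq lists it as a transcribed pseudogene. Oas1b had 6.27, 6.02 and 6.75 TPM in the double group, 5.04, 5.42 and 4.84 in inv(3), 4.67, 4.68 and 4.71 in Sf3b1 K700E, and 3.93, 3.97 and 4.19 in control. Its groups did not overlap, but the steps were small, with log2 differences of 0.53 ± 0.09 between double and Sf3b1 K700E (SE, edgeR adjusted p = 5.4e-04) and 0.45 ± 0.09 between inv(3) and control (adjusted p = 0.0024).

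Oas1c, an Oas1 paralog, had 5.19, 5.87 and 6.66 TPM in the double group, 4.76, 5.43 and 5.38 in inv(3), 3.01, 3.78 and 3.16 in Sf3b1 K700E, and 3.76, 2.89 and 3.46 in control. Libraries with inv(3) were again all above those without. The log2 difference was 0.93 ± 0.14 between double and Sf3b1 K700E (SE, edgeR adjusted p = 1.6e-04) and 0.74 ± 0.14 between inv(3) and control (adjusted p = 0.0012). An antisense transcript shares 201 bases of exon with Oas1c, and another shares 38 with Oasl1. The libraries are unstranded, so reads there cannot be assigned to one strand.

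**Figure D2:**
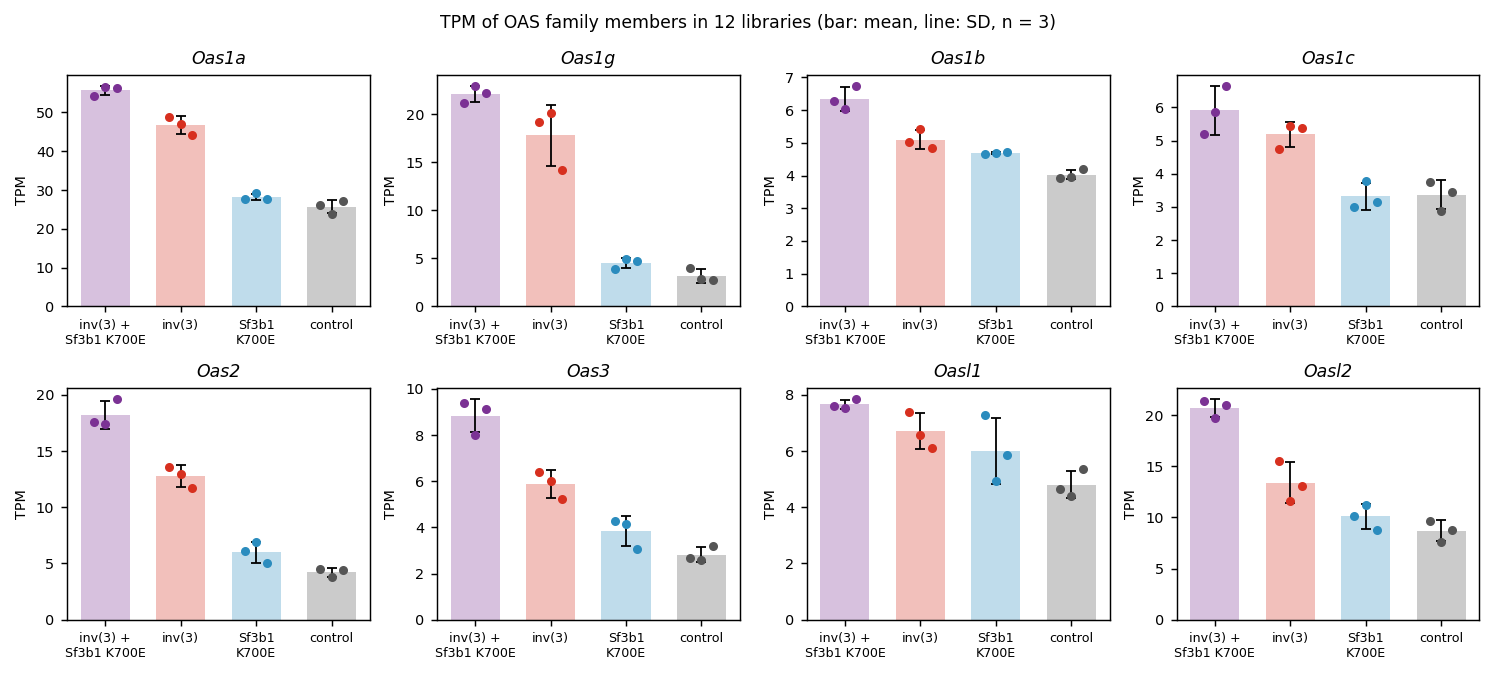
TPM of the 8 members in each library (points), with group mean (bar) and SD (line, n = 3), for double, inv(3), Sf3b1 K700E and control from left to right. All 8 OAS genes are higher in both groups with inv(3) than in control, most so Oas1g at 22.1 TPM in double and 3.16 TPM in control.

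Read by comparison, the effect of inv(3) was measured in 2 pairs of groups with no library in common. Against Sf3b1 K700E, all 8 members rose in the double group (median log2 difference 1.10), where 25.7% of the genes tested rose and the median of all genes was 0.03. Against control, all 8 rose in inv(3) (median 0.85), where 18.4% of the genes tested rose and the median of all genes was 0. No member's TPM overlapped between the groups, where 20.3% of genes tested were higher without overlap in double against Sf3b1 K700E and 14% in inv(3) against control. The double group against control, whose Xist levels overlapped, also had all 8 members higher (median 1.21), where 20.8% of the genes tested rose. No member overlapped, as for 23.3% of genes tested, and the rises ran from 0.68 ± 0.09 log2 units (SE) for Oas1b to 2.83 ± 0.17 for Oas1g. This comparison shares its double libraries and its control libraries with the others. On the TPM scale the median gene shifted by -0.11 log2 units between inv(3) and control, so TPM ratios there run slightly below the fold changes from counts.

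The effect of Sf3b1 K700E was smaller. Without inv(3), 1 of 8 members passed: Oas2 rose by 0.44 ± 0.11 log2 units in Sf3b1 K700E against control (SE, 1.36-fold, edgeR adjusted p = 0.03), where 3.94% of the genes tested rose. For 3 of 8 the libraries did not overlap, as for 25.3% of genes tested. In the same comparison 11 of 13 macrophage markers rose (median log2 difference 2.05). Of 8 primary granule markers of neutrophils, 6 fell (median -0.52), where 4.9% of the genes tested fell. The part of these markers' cells in the Oas2 result was not tested. The Oas2 call ended when control replicate 1, 2 or 3 was left out (adjusted p = 0.057, 0.13 and 0.056), without Sf3b1 K700E replicate 1 or 2 (0.065 and 0.13), in edgeR on these groups alone (0.057) and in limma-voom (0.059). The other 7 had differences from -0.09 ± 0.14 (Oas1c) to 0.45 ± 0.17 (Oas1g, adjusted p = 0.11). The Oas3 difference of 0.38 ± 0.13 (adjusted p = 0.095) passed without Sf3b1 K700E replicate 3 (0.53, adjusted p = 0.021) and in DESeq2 (0.39, adjusted p = 0.043). That of Oas1g passed without control replicate 1 (0.64, adjusted p = 0.045) and in DESeq2.

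Added to inv(3), the splicing mutation went with higher levels of 4 of 8 members, where 13.4% of the genes tested rose. Oasl2 rose by 0.55 ± 0.11 log2 units in the double group against inv(3) (SE, 1.46-fold, edgeR adjusted p = 0.0053), Oas3 by 0.51 ± 0.13 (adjusted p = 0.016), Oas2 by 0.43 ± 0.10 (adjusted p = 0.014) and Oas1a by 0.17 ± 0.05 (adjusted p = 0.037). All 8 differences were above 0, and for 7 of 8 the libraries did not overlap, as for 32.9% of genes tested. The number that passed was 2 without double replicate 1, and 1 without double replicate 3 or inv(3) replicate 3. The Oas1a call ended in 12 of 22 alternatives, among them the fit without any 1 of the double or inv(3) libraries, control replicate 3, or Sf3b1 K700E replicate 2 or 3 (adjusted p = 0.051 to 0.13), groups compared alone (0.077), and its sum with Oas1g (0.19, adjusted p = 0.057).

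Whether the effect of inv(3) differed with and without Sf3b1 K700E was tested by the interaction. No member passed by edgeR, where 0.836% of the genes tested did, and 1 had an unadjusted p below 0.05. That member was Oasl2, with an excess of 0.40 ± 0.15 log2 units in the presence of Sf3b1 K700E (adjusted p = 0.22). The remaining estimates lay between -0.23 ± 0.22 (Oas1g) and 0.19 ± 0.19 (Oas1c). DESeq2 and limma called no member either.

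**Figure D3:**
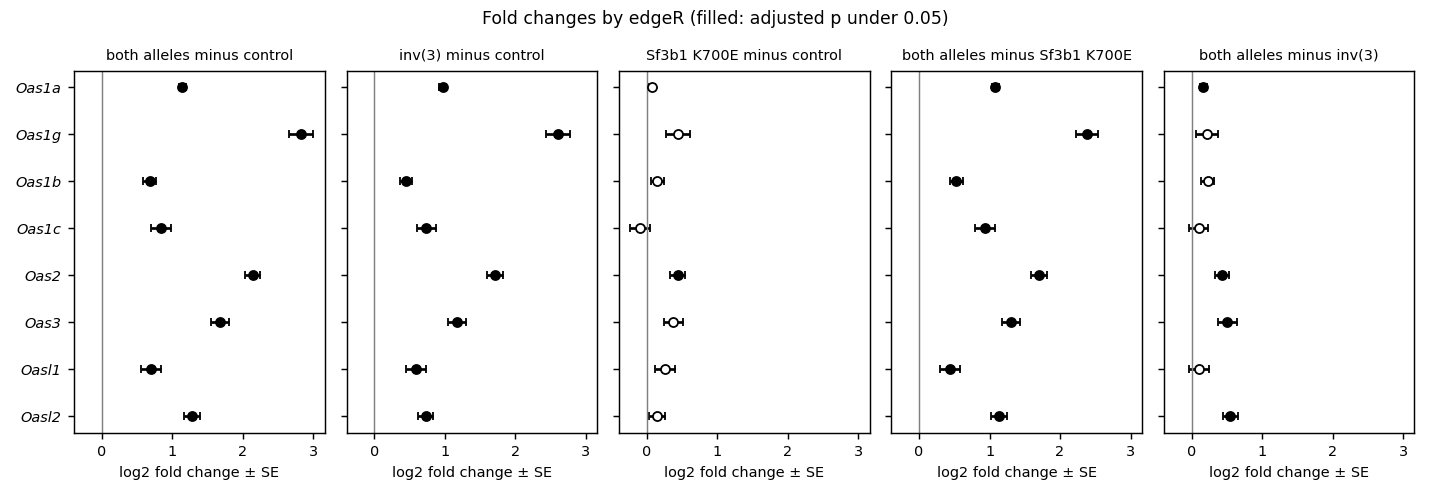
Log2 fold changes with SE from edgeR (both alleles: the double group) for the 8 members in 5 comparisons, the first-named group minus the second, with filled points where the adjusted p is under 0.05. Points of all 8 members are filled and right of 0 in the comparisons of double with control, inv(3) with control and double with Sf3b1 K700E, with Oas1g farthest right at 2.83 in double against control.

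The order of the members' TPM levels also shifted with genotype. In control, Oas1a at 25.7 ± 1.65 TPM (SD, n = 3) was followed by Oasl2 at 8.7 ± 1.04 and Oasl1 at 4.81 ± 0.483. Below Oasl1, the neighbouring pairs Oasl1 and Oas2, Oas2 and Oas1b, Oas1c and Oas1g, and Oas1g and Oas3 overlapped. In the double group, Oas1g (22.1 ± 0.858 TPM) ranked 2, overlapping with Oasl2 (20.7 ± 0.903), and Oas2 (18.2 ± 1.24) ranked 4. Oasl1 ranked 6 in double, 5 in inv(3), and 3 in both Sf3b1 K700E and control. The summed TPM of the 8 members was 145 ± 3.49 in double, 114 ± 8.22 in inv(3), 66.6 ± 3.45 in Sf3b1 K700E and 56.9 ± 4.21 in control (SD, n = 3 each).

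**Figure D4:**
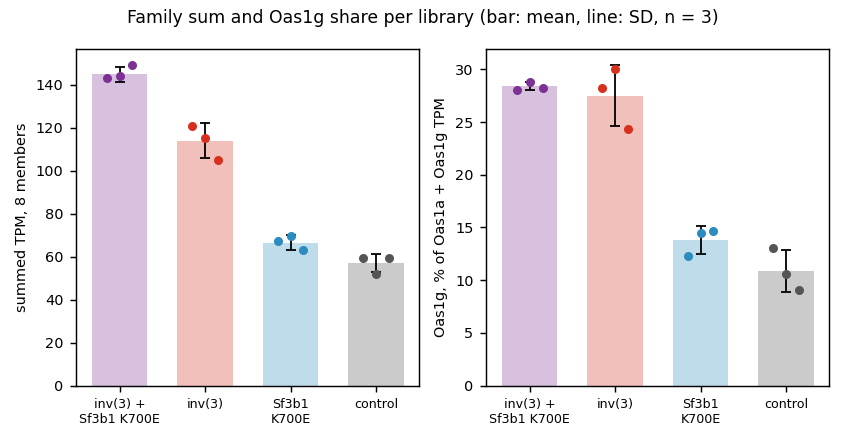
Summed TPM of the 8 members (left) and the percentage of Oas1g in the Oas1a plus Oas1g TPM (right), per library (points) with group mean (bar) and SD (line, n = 3), for double, inv(3), Sf3b1 K700E and control from left to right. In both panels the 6 libraries with inv(3) lie above the 6 without it, at 24.3 to 30% and 9.07 to 14.7% for the Oas1g percentage.

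Genes that act on oligoadenylates or on RNA decay were tested beside the family. Pde12, a phosphodiesterase that degrades oligoadenylates, was lower in double than in Sf3b1 K700E by a log2 change of -0.21 ± 0.06 (SE, edgeR adjusted p = 0.013), and its change between inv(3) and control was -0.03 ± 0.06 (adjusted p = 0.75). Akap7, a mouse protein with a like phosphodiesterase activity, rose by 0.41 ± 0.11 in double against Sf3b1 K700E (adjusted p = 0.0075), while its change of 0.19 ± 0.11 in inv(3) did not pass (adjusted p = 0.18). Abce1, which recycles ribosomes, changed by -0.17 ± 0.05 (adjusted p = 0.023) between double and Sf3b1 K700E and by -0.16 ± 0.05 (adjusted p = 0.035) between inv(3) and control. Xrn1, an exonuclease of RNA decay, passed in no comparison.

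The interferon system around the family was read from lists of nucleic acid sensing genes, interferon signalling genes and effectors. Of 28 interferon effectors tested, 19 rose and 2 fell in double against Sf3b1 K700E (median log2 difference 0.37). In inv(3) against control, 16 rose and 3 fell (median 0.28). The shares that rose were 67.9% and 57.1%, where 25.7% and 18.4% of the genes tested rose. Those that fell were 7.14% and 10.7%, where 23.5% and 20.3% of the genes tested fell. Isg15, a ubiquitin-like modifier, was at 20.2 ± 0.91 TPM in double and 10.1 ± 2.22 in Sf3b1 K700E, and at 15.9 ± 2.14 in inv(3) and 7.81 ± 1 in control (SD, n = 3). Samhd1, a dNTP hydrolase that restricts viruses, rose by 0.62 ± 0.05 and 0.27 ± 0.05 in the 2 comparisons, and Xaf1 by 0.75 ± 0.11 and 0.74 ± 0.11 (SE). Ifit2 fell in both (-0.37 ± 0.08 and -0.33 ± 0.08), although its relative Ifit1, which binds RNA lacking the host cap, rose (1.00 ± 0.16 and 0.86 ± 0.16). Ifitm1, a membrane protein that restricts virus entry, also fell in both (-1.36 ± 0.41 and -2.38 ± 0.44). Ifit1, Ifit2 and Ifitm1 lie outside the rule for named genes and were chosen after their values were seen.

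Genes of nucleic acid sensing, with signalling adaptors such as Mavs among them, split. Of 21 tested, 11 rose and 4 fell in double against Sf3b1 K700E, and 9 rose and 2 fell in inv(3) against control. The shares that rose were 52.4% and 42.9%, where 25.7% and 18.4% of the genes tested rose. Those that fell were 19% and 9.52%, where 23.5% and 20.3% of the genes tested fell. The RNA helicase sensors Ddx58 (RIG-I) and Dhx58 rose in both, Ddx58 by 0.82 ± 0.07 and 0.68 ± 0.07 log2 units and Dhx58 by 0.65 ± 0.06 and 0.42 ± 0.06 (SE). The endosomal receptors Tlr7 (-1.40 ± 0.17 and -0.60 ± 0.16) and Tlr9 (-1.41 ± 0.19 and -1.37 ± 0.20) fell in both.

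Of 16 interferon signalling genes, 6 rose and 2 fell in double against Sf3b1 K700E, and 4 rose and 1 fell in inv(3) against control. The shares that rose were 37.5% and 25%, where 25.7% and 18.4% of the genes tested rose. The transcription factors Stat2 (0.32 ± 0.05 and 0.32 ± 0.05 log2 units, SE), Irf9 (0.44 ± 0.07 and 0.36 ± 0.07) and Irf1 (0.48 ± 0.05 and 0.23 ± 0.05) rose in both. The transcription factor Irf8 fell in both (-1.03 ± 0.3 and -1.35 ± 0.3, edgeR adjusted p = 0.015 and 0.0049). Usp18 fell in double against Sf3b1 K700E (-0.7 ± 0.2, adjusted p = 0.011). Irf8 and Usp18 lie outside the rule for named genes and were chosen after their values were seen. Of 19 interferon genes, 16 had no count in any library, Ifnb1 and 11 Ifna genes among them, and Ifng had 1 count in all. Ifnz, the most counted, had 24.64 expected counts summed over 3 libraries in double, 25.89 in inv(3), 17 in Sf3b1 K700E and 20 in control. Over all 71 tested genes of these lists, 37 rose and 10 fell in double against Sf3b1 K700E. In inv(3) against control, 29 rose and 8 fell. The shares that rose were 52.1% and 40.8%, where 25.7% and 18.4% of all genes tested rose. Those that fell were 14.1% and 11.3%, where 23.5% and 20.3% of all genes tested fell.

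**Figure D5:**
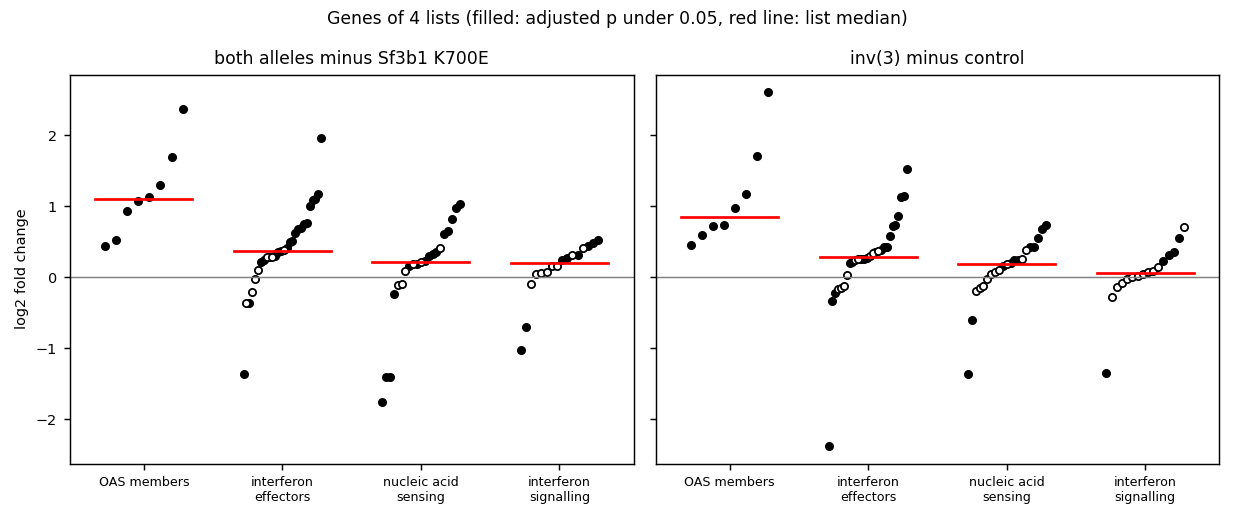
Log2 fold changes (edgeR) of the genes in 4 lists, sorted within each list, for double minus Sf3b1 K700E (left) and inv(3) minus control (right), with filled points at adjusted p under 0.05 and a red line at the list median. The OAS members lie wholly above 0 with medians of 1.10 and 0.85, and interferon effectors have medians of 0.37 and 0.28.

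Sf3b1 K700E against control moved few of these genes, with 3 of 71 higher and 3 lower, where 3.94% and 4.9% of the genes tested passed. The chemoreceptor transporter Rtp4 (0.86 ± 0.15 log2 units, SE, edgeR adjusted p = 0.0079), the antiviral enzyme Rsad2 (0.52 ± 0.11, adjusted p = 0.019) and the signalling adaptor Mavs (0.39 ± 0.08, adjusted p = 0.014) rose. The kinase Ikbke (-0.43 ± 0.07, adjusted p = 0.0059), which had the smallest p of the 71, the adaptor Traf3 (-0.25 ± 0.06, adjusted p = 0.026) and the interferon gamma receptor chain Ifngr1 (-0.38 ± 0.09, adjusted p = 0.023) fell. In double against inv(3), 23 of 71 were higher and 4 lower, where 13.4% and 9.13% of the genes tested were. The smallest p were those of Samhd1 (0.36 ± 0.05) and Rtp4 (0.95 ± 0.15).

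Cell type markers differed between the groups, and in bulk samples fewer cells of a type and less RNA per cell cannot be told apart. For every marker list below, the shares of all genes tested are the measure. They were 25.7% higher and 23.5% lower in double against Sf3b1 K700E, and 18.4% and 20.3% in inv(3) against control. Of 11 late neutrophil markers, 6 rose and none fell in double against Sf3b1 K700E, and 7 rose and 1 fell in inv(3) against control. Their summed level was 2740 to 3850 CPM in double, 4480 to 5430 in inv(3) libraries, 1250 to 2310 in Sf3b1 K700E libraries and 1440 to 2100 in control. This sum and the summed OAS level were both higher in each group with inv(3) than in either group without it. The marker sum was higher in inv(3) than in double libraries. The summed OAS level was higher in double (143 to 149 TPM) than in inv(3) libraries (105 to 121 TPM). The part of these cells in the OAS levels was not tested.

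Monocyte markers were at 2380 to 2690 CPM in double, 1920 to 2520 in inv(3) libraries, 1920 to 2200 in Sf3b1 K700E libraries and 2300 to 2610 in control. The inv(3) libraries overlapped every other group, while the Sf3b1 K700E libraries lay below all double and control libraries. Of 12, 4 rose and 6 fell in double against Sf3b1 K700E, and 3 rose and 5 fell in inv(3) against control. The shares that rose were 33.3% and 25%, where 25.7% and 18.4% of the genes tested rose. Macrophage markers were at 69.8 to 90 CPM in double, 82.1 to 127 in inv(3) libraries, 496 to 705 in Sf3b1 K700E libraries and 363 to 443 in control. All 13 fell in double against Sf3b1 K700E, and 9 fell and 1 rose in inv(3) against control. In Sf3b1 K700E against control, however, 11 rose and none fell, where 3.94% of the genes tested rose.

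Plasmacytoid dendritic markers were at 176 to 302 CPM in double, 153 to 202 in inv(3) libraries, 364 to 416 in Sf3b1 K700E libraries and 328 to 360 in control. Their defining gene Siglech had 1, 0, 24 and 13 counts in those groups. Stem and progenitor markers were at 807 to 966 CPM in double, 615 to 720 in inv(3) libraries, 1210 to 1350 in Sf3b1 K700E libraries and 1030 to 1140 in control. Of 10, 7 fell in double against Sf3b1 K700E and 8 in inv(3) against control. Primary granule markers of neutrophils rose in 7 of 8 and 5 of 8 cases in the same comparisons and fell in none. Mast cell, basophil and eosinophil markers fell in 10 of 11 and 11 of 11, and erythroid markers in 8 of 9 and 5 of 9. The part of these shifts in the OAS levels was not tested.

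The members varied together across libraries. Over the 12 libraries, which fall into those with and those without inv(3), Pearson's r of log2(CPM + 1) between pairs of members ran from 0.74 to 0.99 (28 pairs, median 0.94), a description that largely carries that split. Around the group means the median r was 0.34, from -0.37 (Oas1b and Oasl2) to 0.78 (Oas2 and Oas3), and it was above 0 in 24 pairs. Oas2 and Oas1a (0.69) and Oas2 and Oasl2 (0.67) were the next highest.

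The genes most like the mean profile of the 8 members over the 12 libraries were Krt7 (r = 0.989), Echdc2, Cd68 (0.986 each), Atf7ip2, Gm996, Notch3 (0.985 each), Fam102a and Lama5 (0.984 each). These values, too, largely carry the split by inv(3). Around the group means, r was 0.51 for Krt7, 0.46 for Cd68, 0.42 for Gm996 and 0.38 for Atf7ip2. It was lower for Lama5 (0.22), Notch3 (0.21), Fam102a (0.11) and Echdc2 (0.07). Cd68, a lysosomal protein of monocytes and macrophages, averaged 160 TPM in double, 111 in inv(3), 59.7 in Sf3b1 K700E and 40.5 in control. It was also the gene most like Oas2 (r = 0.991). The genes most like Oas3 were Pard6b (0.991), Cd68 (0.988) and Isg15 (0.987). The nearest genes of other members were the interferon-inducible GTPase Irgm2 for Oasl2 (0.985), Spp1 for Oas1g (0.990) and Max for Oasl1 (0.956). Max was at 109 TPM in double, 102 in inv(3), 110 in Sf3b1 K700E and 104 in control. For the pairs named with a single member, r around the group means ran from 0.63 (Cd68 and Oas2) to 0.91 (Isg15 and Oas3).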

How the data were processed

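The gene tables carry RSEM's columns, per the file headers. The expected counts deposited by the authors are estimated fragments per gene without normalization. The deposited TPM values are scaled per length and per library, and give the levels and ratios printed. FPKM, also deposited, was not used. The submitters' processing notes name mm10 and bcl2fastq, and no aligner or version is stated in the labels.

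After rounding, 13755 of 24411 genes passed edgeR's filterByExpr. A single robust quasi-likelihood model of the 4 groups, with TMM factors, was fitted in edgeR 4.0.16 under R 4.3.3. Tests are two-sided, Benjamini-Hochberg adjustment covers every gene tested, and the limit is 0.05. SE were taken from the F statistic. The code was tested on simulated data.

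Members, lists and tests were chosen with earlier results of these data known. Named are all members, oligoadenylate turnover genes, up to 4 genes per other list and comparison by smallest p, and the nearest genes by Pearson's r. Some items under this rule are not reported here. Alternatives comprised RLE scaling, other count filters (none, or 1 CPM on average), DESeq2 1.42.0, limma 3.58.1 (voom, or log2(TPM + 0.1)), compared groups alone, a replicate block, an effective-length offset and each library left out. Chosen after seeing the data were Oas1a summed with Oas1g, and a fit of the 9 libraries with Y-linked RNA.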

Additional observations from a re-analysis of the deposited data

Results flagged for a closer look

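Samhd1, a dNTP hydrolase that restricts viruses, was the 1 gene of 71 on the interferon lists that passed in the interaction. That is 1.41%, where 0.836% of the genes tested passed. Only the inv(3) libraries held almost no Y-linked RNA, so sex-linked RNA and genotype cannot be told apart in this test. The log2 rise of Samhd1 was 0.62 ± 0.05 with the splicing mutation (double against Sf3b1 K700E) and 0.27 ± 0.05 without it (inv(3) against control). The difference was 0.34 ± 0.07 (SE, edgeR interaction, adjusted p = 0.045). The call ended in 15 of 20 alternatives. These were the fits without any 1 of the control or Sf3b1 K700E libraries, without double replicate 1 or 3, or without inv(3) replicate 2 or 3 (adjusted p = 0.062 to 0.14), with RLE scaling (0.058), no filter (0.05, just above the limit), a mean of at least 1 CPM (0.055), limma on TPM (0.057) and the replicate block (0.096).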

How the results depend on the processing

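In inv(3) against control and in double against control, all 8 members passed under every alternative run, and in double against Sf3b1 K700E 7 or 8 did. In double against inv(3), 1 to 4 members passed when a library was left out (main 4) and 5 in limma on TPM. In Sf3b1 K700E against control (main 1), DESeq2 called 3, and groups compared alone, limma-voom and the replicate block each called 0, with 0 to 2 when a library was left out. Of the 71 interferon genes, double against inv(3) had 27 calls, 17 with groups compared alone and 14 to 30 with a library left out. Sf3b1 K700E against control had 6, against 12 in the 9 libraries with Y-linked RNA, 12 in DESeq2, 14 with groups compared alone and 2 to 10 with a library left out. The interaction had 1, against 5 in DESeq2, 0 to 3 with a library left out, and 0 in limma on TPM, at 1 CPM, with no filter, with RLE and with the replicate block. Over all genes, the calls were 1216 for Sf3b1 K700E against control (168 without its replicate 2, 214 without control replicate 2, 1868 in DESeq2, 654 with the block), 3103 for double against inv(3) (1566 without double replicate 3, 1954 with groups compared alone) and 115 for the interaction (32 without control replicate 2, 625 in DESeq2, 60 with the block). Estimates near 0 changed sign. The interaction of Oas1g (-0.23) was 0.07 when summed with Oas1a, and that of Oas2 (-0.01) was 0.02 in limma on TPM, 0 in limma-voom and -0.16 to 0.06 with a library left out. With a library left out, the interactions of Oas3 and Oasl1 ran from -0.04 to 0.23 and from -0.31 to 0.02, and Samhd1 from -0.01 to 0.04 in Sf3b1 K700E against control. The cause was not tested. Deviations of same-numbered libraries from their group means had r from -0.65 to 0.45. Differently numbered libraries were not compared, so these values cannot decide whether replicate numbers pair the samples. With the block, the Oas2 call in Sf3b1 K700E against control (adjusted p = 0.062) and the Oas1a call in double against inv(3) (adjusted p = 0.071) ended in edgeR.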
